A study of Mus musculus with 14 samples.

Results

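The genes described here are those of the platelet-derived growth factor (PDGF) system: the receptor genes Pdgfra and Pdgfrb and the ligand genes Pdgfa, Pdgfb, Pdgfc and Pdgfd. They were chosen by symbol, as probe sets annotated with a single gene, and are 6 of the 19938 genes measured. Each of the 6 is read by 1 probe set, so no choice between probe sets was needed. The values are the deposited log2 expression levels of 14 microarrays of mouse embryonic stem (ES) cells that were differentiating as embryoid bodies, which are floating aggregates in which the cells form the early germ layers.

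The cells carried a transgene switched on by doxycycline, and the study asked how forcing the factors ER71 (the product of Etv2, an ETS-family factor), GATA2 and SCL (the product of Tal1) affects the making of hemangioblasts, the shared precursors of blood and endothelium. Control groups were embryoid bodies without doxycycline at day 2.25 (1 array), day 2.5 (3 arrays) and day 3 (3 arrays), and the labels give their genotype as wild-type. Induced groups received 1 µg/ml doxycycline from day 2 and were collected on the same days after 6 h (1 array), 12 h (3 arrays) and 24 h (3 arrays), and their genotype is given as ER71/Etv2, GATA2 and Scl co-expression. Replicates 1 and 2 came from the inducible line iEGS and replicate 3 from a line labelled iB1, so replicate 3 and line cannot be told apart. No untreated line without the transgene was exposed to doxycycline, so each induced-minus-control difference includes any effect of the drug itself. ES cells had been kept on mouse embryonic fibroblast feeders. The design text speaks of 3 independent experiments. RNA was amplified before labelling.

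PDGF ligands are secreted dimers that bring receptor tyrosine kinases together at the cell surface, which then recruit SH2-domain proteins such as the PI3-kinase regulatory subunits, phospholipase C gamma, SHP2 and STAT5. PDGFRα binds the A, B and C chains and PDGFRβ binds B and D, so the receptors differ in the ligands that reach them. In gastrulating embryos and embryoid bodies Pdgfra is a marker of nascent and paraxial mesoderm and of primitive endoderm, whereas cells on the hemangioblast path are recognised by the related receptor FLK1 (Kdr) and lose PDGFRα. Pdgfb is made by endothelium and by platelets and their precursors, and it draws PDGFRβ-bearing mural cells to vessels.

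In outline, 1 receptor gene and 1 ligand gene differed between induced and control cells. Pdgfra rose 3.93-fold in untreated embryoid bodies between day 2.5 and day 3, and after 24 h of induction it was 6.86-fold below the day 3 controls. Pdgfb was 1.56-fold higher after 24 h of induction, a call that was lost in 6 of 25 alternative analyses. The other 4 members did not pass the test in any comparison of the reported fit. All tests were limma's moderated tests on log2 values, with p-values adjusted over all 19938 genes by the Benjamini-Hochberg method and a call at an adjusted p under 0.05. In these mixed populations, fewer cells of a type and less RNA per cell cannot be told apart.

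**Figure D1:**
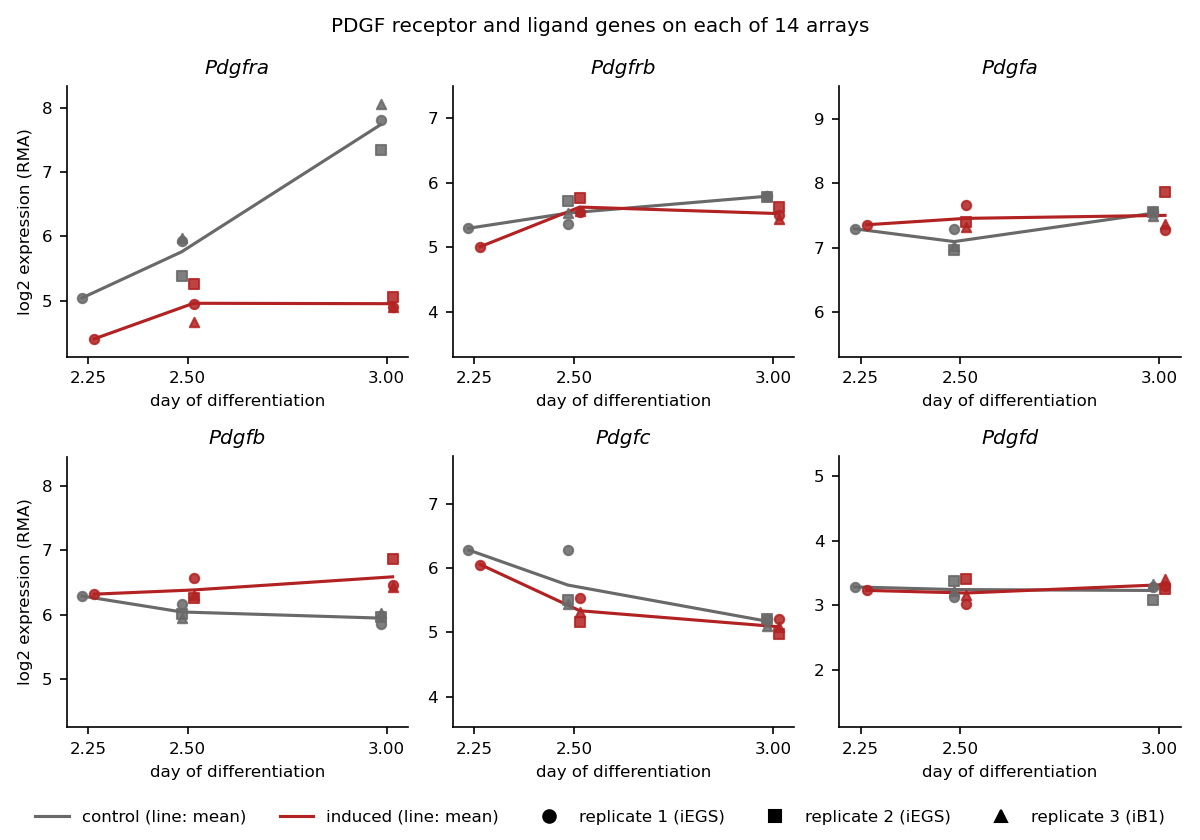
Log2 expression (RMA, vertical axis) of the 6 PDGF genes against day of differentiation, with 1 point per array (control in grey, induced in red, shapes for replicates 1 to 3) and lines through the group means. Pdgfra is between 7.34 and 8.06 on the 3 control arrays of day 3 and between 4.90 and 5.06 on the 3 arrays of 24 h induction. The panels have different vertical offsets and the same span, and heights are not comparable between genes.

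The induced factors themselves were read on each array as a check of the labels. Gata2 lay between 9.89 and 10.43 on the induced arrays of 12 h and 24 h and between 5.49 and 6.29 on their controls, and Etv2 between 9.73 and 10.47 against 6.77 to 8.05. Tal1 lay between 6.94 and 7.94 on those induced arrays against 4.61 to 5.45, and all 3 genes were higher at 6 h too. Pou5f1, the pluripotency factor OCT4, was between 10.01 and 11.41 on the 14 arrays, and the primitive streak genes Eomes and Mixl1 were at least 6.99 and 6.54 on all of them. Correlations between arrays over all genes were 0.951 to 0.995. The array of 24 h induction, replicate 3, stood apart from the rest, with the lowest mean correlation with the others (0.966) and the narrowest spread of values over genes (SD 1.91).

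The DNA upstream of Pdgfra and of its neighbour Kdr is shown here because the pair lie close together on mouse chromosome 5, with Kit between them, and are set side by side below. The sequences are the 250 bases before the annotated start in RefSeq (build GRCm38.p6), written 5′ to 3′ on the gene's own strand, at chr5:75152001-75152250 on the plus strand for Pdgfra and chr5:75978456-75978705 on the minus strand for Kdr. Capitals mark matches to 4 hexamers known for the families of the induced factors, searched on both strands.
Pdgfra: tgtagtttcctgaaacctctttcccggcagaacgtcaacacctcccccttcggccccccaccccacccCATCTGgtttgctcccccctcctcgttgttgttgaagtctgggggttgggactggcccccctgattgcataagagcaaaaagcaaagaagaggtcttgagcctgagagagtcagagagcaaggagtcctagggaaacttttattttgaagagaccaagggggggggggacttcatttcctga
Kdr: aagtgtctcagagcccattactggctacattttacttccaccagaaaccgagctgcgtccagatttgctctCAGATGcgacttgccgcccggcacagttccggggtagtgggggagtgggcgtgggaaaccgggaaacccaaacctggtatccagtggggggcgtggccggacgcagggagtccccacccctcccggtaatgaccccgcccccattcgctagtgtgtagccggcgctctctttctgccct
The hexamers were AGGAAG and CGGAAG for ETS factors, AGATAA for GATA factors and CAGATG for the E-box bound by SCL with its partners, and none of them overlaps another here. In the full windows of 300 bases (250 before and 50 after the start), AGGAAG is in 35.4%, CGGAAG in 16.9%, AGATAA in 11.2% and CAGATG in 17.2% of all 32851 RefSeq windows of that length. Pdgfra's window holds 1 match, the E-box on the opposite strand with its left end at position -182 from the start, and Kdr's window likewise holds 1, the E-box on its own strand at -179. Kit's windows hold AGGAAG alone, at -222 or -226 depending on which of 2 annotated starts is used. Among the ligand genes, a Pdgfa window holds AGGAAG and CGGAAG, the Pdgfc window AGGAAG, and the Pdgfd window CGGAAG and AGATAA. No window was available for Pdgfb or Pdgfrb, so these genes were not searched. Such matches describe the letters in these windows only.

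Pdgfra, the receptor for the A, B and C chains, changed most among the 6. In controls it was 5.04 at day 2.25, then 5.93, 5.38 and 5.98 in replicates 1, 2 and 3 at day 2.5, and 7.80, 7.34 and 8.06 at day 3. In induced cells it was 4.41 at 6 h, then 4.95, 5.27 and 4.67 at 12 h, and 4.90, 5.06 and 4.90 at 24 h. Every day 3 control array lay above every other array, and the 3 arrays of 24 h induction lay below all controls of day 2.5 and day 3. Ordered by mean, the groups ran from 6 h induction (4.41), through 24 h (4.96 ± 0.0926, SD, n = 3) and 12 h (4.96 ± 0.297), the day 2.25 control (5.04) and the day 2.5 control (5.76 ± 0.330) to the day 3 control (7.73 ± 0.363). Neighbours in that order from 24 h induction to the day 2.25 control did not differ beyond their spread, and the groups of 1 array have no spread of their own.

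After 24 h of induction Pdgfra differed from the day 3 controls by -2.78 ± 0.211 log2 units (SE, 3 arrays against 3, limma adjusted p = 1.39e-06). It was lower in all 3 same-numbered pairs, by -2.90, -2.28 and -3.16. Of all genes it had rank 23, counted from the most negative difference. The call held in all 25 alternative analyses, including the fit without the array that stood apart. At 24 h, 2 of the 6 PDGF genes were called, 1 lower and 1 higher, against 5.46% of all genes (3.43% lower and 2.03% higher).

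At 12 h Pdgfra was 0.80 log2 units below its control on the mean (difference -0.80 ± 0.211, 95% interval -1.25 to -0.35), without passing the test (limma adjusted p = 0.108). The groups did not overlap and all 3 pairs were lower, by -0.98, -0.11 and -1.30. Replicate 2, the pair with the small difference, had the lowest control and the highest induced value. Without the day 2.5 control of replicate 2 the difference was -0.99 with a limma adjusted p of 0.0465, and with arrays weighted by their spread it was -0.95 with 0.00561. Those were the only 2 of 25 alternatives that called it. Without replicate 3 the difference was -0.55 (limma adjusted p = 0.994), and without replicate 1 it was -0.71 (0.423). None of the 6 genes was called at 12 h, where 1.39% of all genes were, and 3 of the 6 had an unadjusted limma p under 0.05 (Pdgfra lower, Pdgfa and Pdgfb higher). The same 3 genes were those whose groups did not overlap, a pattern found in 14.5% of all genes. The share of all genes under the unadjusted threshold is not given, here or for the lists below. Counts at that threshold therefore have no background to be set against.

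The size of the Pdgfra difference depended on time. The effect at 24 h minus the effect at 12 h was -1.98 ± 0.299 (limma interaction contrast, adjusted p = 0.00654), and Pdgfra was the only PDGF gene called in it, where 0.426% of all genes were called. Without replicate 2 that difference was -1.89 and without replicate 3 it was -2.04, with adjusted p-values of 0.121 and 0.174, so the call was lost without either of them and was kept without replicate 1.

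Each arm showed its own part of that change. Untreated embryoid bodies gained 1.97 ± 0.211 log2 units of Pdgfra between day 2.5 and day 3 (limma adjusted p = 0.000341), with gains of 1.87, 1.96 and 2.08 in the 3 replicates. In induced cells the 24 h mean was 0.01 log2 units from the 12 h mean (difference -0.01, 95% interval -0.46 to 0.45; limma adjusted p = 0.996). Control calls covered 0.757% of all genes, with Pdgfra alone among the 6, and between 12 h and 24 h of induction no PDGF gene was called, nor had any an unadjusted limma p under 0.05, where 1.81% of all genes were called. Against the earlier, day 2.5 controls, a comparison added after the data were seen, Pdgfra at 24 h was also lower (-0.81 ± 0.211, limma adjusted p = 0.0345), and 2 of 6 genes were called there against 6.33% of all. That call was lost in 7 of 25 alternatives, among them the fits without replicate 1 (adjusted p = 0.125), without replicate 3 (0.293) and without the array that stood apart (-0.78, 0.0907). The other gene called was Pdgfb (0.55, limma adjusted p = 0.0446), a call lost in 12 of 25 alternatives, and a fit blocked on replicate number called 3 of the 6, Pdgfra, Pdgfb and Pdgfc. Leaving out dim genes called the same 3, and array weights called 4, with Pdgfa added. Pdgfc was also called without the 24 h array of replicate 1 and without the day 2.5 control of replicate 3. These comparisons share control or induced arrays and are not independent of each other.

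The earliest time had 1 array per group and no test. Pdgfra was 4.41 after 6 h and 5.04 in its control, 0.643 of the control level, and 0.868% of genes had a difference that low or lower. No PDGF gene reached a 2-fold difference at 6 h, a size passed by 0.356% of all genes. Pdgfrb (5.01 against 5.29) and Pdgfc (6.05 against 6.28) were also below their control array, and Pdgfa (7.35 against 7.29), Pdgfb (6.32 against 6.29) and Pdgfd (3.23 against 3.28) were within 0.1 log2 units of it.

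**Figure D2:**
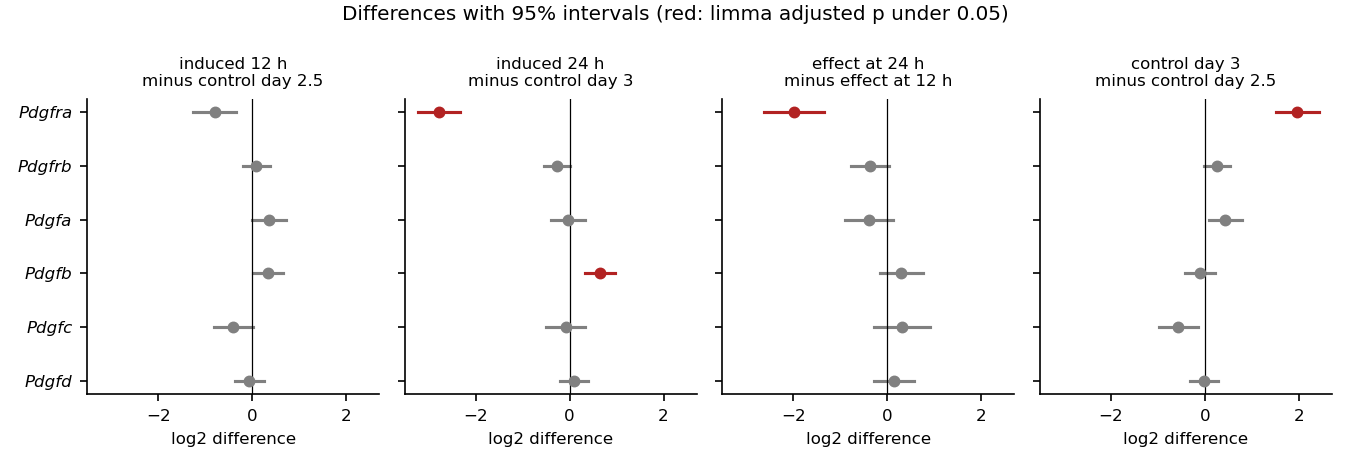
Log2 difference (horizontal axis) of each PDGF gene in 4 comparisons, with bars for the 95% interval from limma; red marks an adjusted p under 0.05. Pdgfra is red in 3 panels (24 h, change of effect, controls over time) and Pdgfb in the 24 h panel, and in the 12 h panel no gene is red.

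Pdgfrb, the receptor of mural cells and the partner of the B and D chains, had no called difference in any comparison. In controls it was 5.29 at day 2.25, 5.35, 5.71 and 5.52 at day 2.5, and 5.80, 5.78 and 5.79 at day 3. In induced cells it was 5.01 at 6 h, 5.54, 5.76 and 5.57 at 12 h, and 5.49, 5.63 and 5.44 at 24 h. The 24 h and day 3 groups did not overlap, with all 3 pairs lower, but the difference of -0.27 ± 0.133 (95% interval -0.55 to 0.02) did not pass (limma adjusted p = 0.345). At 12 h the difference was 0.09 (95% interval -0.19 to 0.38; adjusted p = 0.999). An effect of the size seen for Pdgfra at 24 h lies outside both intervals. Its neighbour on the chromosome, the colony-stimulating factor receptor gene Csf1r, was not called either, with differences of 0.04 at 12 h and 0.22 at 24 h. The group means of Csf1r were low, 3.74 to 4.11.

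Among the ligand genes, Pdgfb, which encodes the B chain that binds both receptors, was higher in induced cells. Control values were 6.29 at day 2.25, 6.16, 6.01 and 5.95 at day 2.5, and 5.85, 5.97 and 6.02 at day 3. Induced values were 6.32 at 6 h, 6.58, 6.26 and 6.31 at 12 h, and 6.46, 6.86 and 6.44 at 24 h. At both 12 h and 24 h each induced array was above each control array of the same day. The difference was 0.34 ± 0.150 at 12 h (95% interval 0.02 to 0.66; limma adjusted p = 0.642) and 0.64 ± 0.150 at 24 h (0.32 to 0.96; adjusted p = 0.0197), higher in 3 of 3 pairs each time. Only the 24 h difference was called, yet the test of the change between the 2 times did not pass (0.30, adjusted p = 0.999).

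The Pdgfb call at 24 h was less firm than that of Pdgfra. It was lost in 6 of 25 alternatives: when the fit held only the compared groups (adjusted p = 0.0941), without replicate 2 (0.36), without replicate 3 (0.116), without the day 3 control of replicate 1 (0.0956) or 2 (0.0652), and without the 24 h array of replicate 2 (0.0963), which had the highest value. Its size stayed between 0.50 and 0.85 log2 units in all 25. In untreated embryoid bodies the Pdgfb difference between day 2.5 and day 3 was not called (-0.10, 95% interval -0.42 to 0.23; limma adjusted p = 1).

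Pdgfa, which encodes the A chain, the ligand specific to PDGFRα, was 7.29 at day 2.25, 7.30, 6.96 and 7.03 at day 2.5, and 7.55, 7.55 and 7.50 at day 3 in controls. Its induced values were 7.35 at 6 h, 7.66, 7.39 and 7.31 at 12 h, and 7.28, 7.86 and 7.36 at 24 h. At 12 h the groups did not overlap and the difference was 0.36 ± 0.168 (95% interval 0.00 to 0.72; limma adjusted p = 0.717). At 24 h they overlapped, with a difference of -0.03 (95% interval -0.39 to 0.33; adjusted p = 0.949) whose sign changed with the processing. In controls the day 3 arrays all lay above those of day 2.5 by a mean of 0.44 (95% interval 0.08 to 0.80), which did not pass (adjusted p = 0.514). Replicate 2 alone was higher in its 24 h pair, by 0.31.

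Pdgfc, whose product must be cut by a protease before it binds PDGFRα, had lower values on later days in both arms. Control values were 6.28 at day 2.25, 6.27, 5.50 and 5.43 at day 2.5, and 5.22, 5.21 and 5.10 at day 3. Induced values were 6.05 at 6 h, 5.53, 5.17 and 5.31 at 12 h, and 5.20, 4.98 and 5.08 at 24 h. The day 2.5 control of replicate 1 was the high value of its group and lay next to the day 2.25 array, also numbered replicate 1. Replicate 2, of the same line iEGS, was 5.50 at day 2.5. From day 2.5 to day 3 the controls did not overlap and the difference was -0.56 ± 0.195 (95% interval -0.98 to -0.14; limma adjusted p = 0.398). Induction differences were -0.40 at 12 h (95% interval -0.82 to 0.02; adjusted p = 0.79) and -0.09 at 24 h (-0.51 to 0.33; adjusted p = 0.867), lower in 3 of 3 pairs both times and not called.

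Pdgfd, whose product likewise needs cutting and binds PDGFRβ, had a dim probe set whose mean signal lay at percentile 11.1 of all genes. Its 14 values ran from 3.01 to 3.40, the groups overlapped at 12 h and 24 h, and the differences were -0.05 (95% interval -0.36 to 0.25) and 0.09 (-0.21 to 0.39). At this signal a change of a low transcript may not be detectable.

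In the controls of day 3 against day 2.5, 4 of the 6 genes had groups that did not overlap, with Pdgfra, Pdgfrb and Pdgfa higher and Pdgfc lower, where 13.6% of all genes did. At 24 h of induction it was 3 of 6 (Pdgfra and Pdgfrb lower, Pdgfb higher), where 18.5% of all genes did, and between 12 h and 24 h of induction none of 6, where 15.4% did. With line iB1 (replicate 3) set beside iEGS (replicates 1 and 2), the Pdgfra difference at 24 h was -3.16 in iB1 against -2.90 and -2.28, and the Pdgfb difference was 0.41 against 0.61 and 0.90. Both directions were thus present in each line, with no test of the line because it has 1 replicate.

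Pdgfra belongs to a cluster of receptor genes on chromosome 5 in which RefSeq orders Lnx1, Chic2, Gsx2, Pdgfra, Kit, Kdr and Srd5a3. Kdr encodes the VEGF receptor FLK1 of hemangioblasts, and Kit the stem cell factor receptor. In controls Kdr was 4.87 at day 2.25, 5.26, 4.97 and 4.96 at day 2.5, and 7.37, 6.77 and 7.11 at day 3. In induced cells it was 6.52 at 6 h, 7.51, 6.79 and 6.77 at 12 h, and 8.33, 7.47 and 7.32 at 24 h. So Kdr was high on all induced arrays from 6 h, while the controls reached that range at day 3.

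Kdr rose by 1.96 ± 0.264 after 12 h of induction (limma adjusted p = 0.000787) and by 2.02 ± 0.264 in controls from day 2.5 to day 3 (adjusted p = 0.0016), and its 24 h difference of 0.62 did not pass (adjusted p = 0.252). Without replicate 2 the Kdr rise at 12 h was 2.03 with an adjusted p of 0.0593, and the control rise was 2.13 with 0.101, and without replicate 3 the control rise was 1.95 with 0.0909. Kit lay between 7.28 and 8.23 on all 14 arrays and was not called, with a 12 h difference of -0.11 (limma adjusted p = 0.999) and a 24 h difference of -0.22 (adjusted p = 0.651). Lnx1, Chic2, Gsx2 and Srd5a3 were not called in either induction comparison. Pdgfra and Kdr were thus both higher in the day 3 controls than in those of day 2.5. The arrays of 24 h induction had Kdr at 7.32 or above with Pdgfra at 5.06 or below. Arrays of whole embryoid bodies cannot show whether both RNAs were in the same cells.

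**Figure D3:**
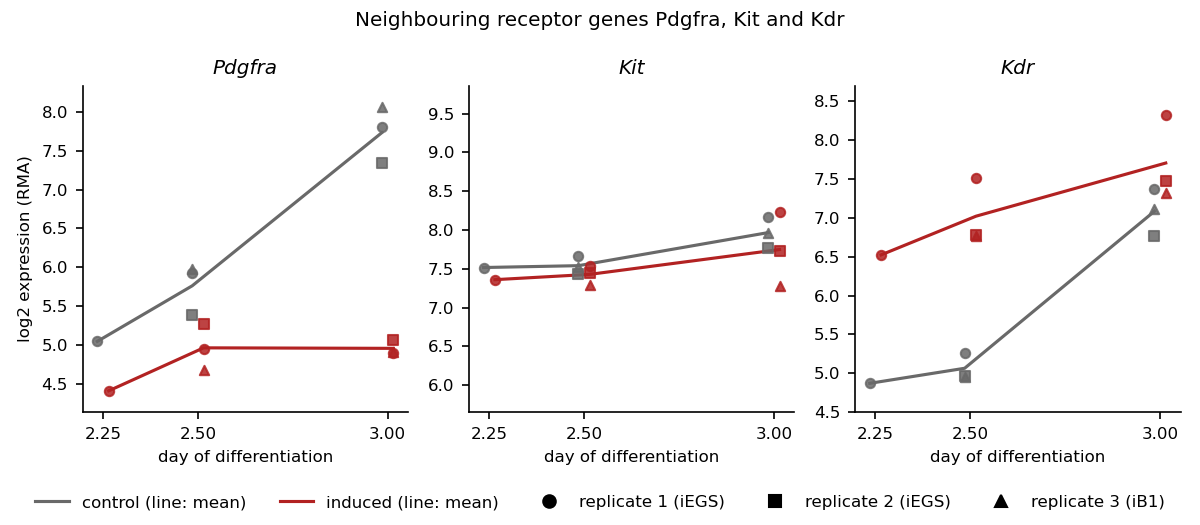
Log2 expression (RMA) of the neighbouring receptor genes Pdgfra, Kit and Kdr against day of differentiation, 1 point per array, lines through group means, control in grey and induced in red. The 3 control arrays of day 3 are at 7.34 or above for Pdgfra and at 6.77 or above for Kdr, and the 3 arrays of 24 h induction are at 5.06 or below for Pdgfra and at 7.32 or above for Kdr.

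The genes whose level over the 14 arrays ran most like Pdgfra, among the 9969 genes above the median mean signal, were Asb4 (r = 0.976), Gata4 (0.949), Mesp2 (0.947) and Adcy6 (0.946). The lowest correlations were those of Id2 (-0.920) and Myb (-0.919). Asb4 was 9.15 in the day 3 control and 5.39 after 24 h of induction, and Gata4 and Mesp2, factors of endoderm and heart and of segmenting mesoderm, also had their highest group mean in the day 3 control. Pdgfb was nearest to Ece1 (r = 0.908), which encodes endothelin-converting enzyme, Nup62cl (0.905), Syngr2 (0.903) and Eng (0.886), which encodes the endothelial TGF-beta co-receptor endoglin, and farthest from Fst (-0.879) and Psmb9 (-0.872). Pdgfra and Pdgfb had r = -0.692 with each other. These values describe 14 arrays that share their group structure, and carry no test.

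**Figure D4:**
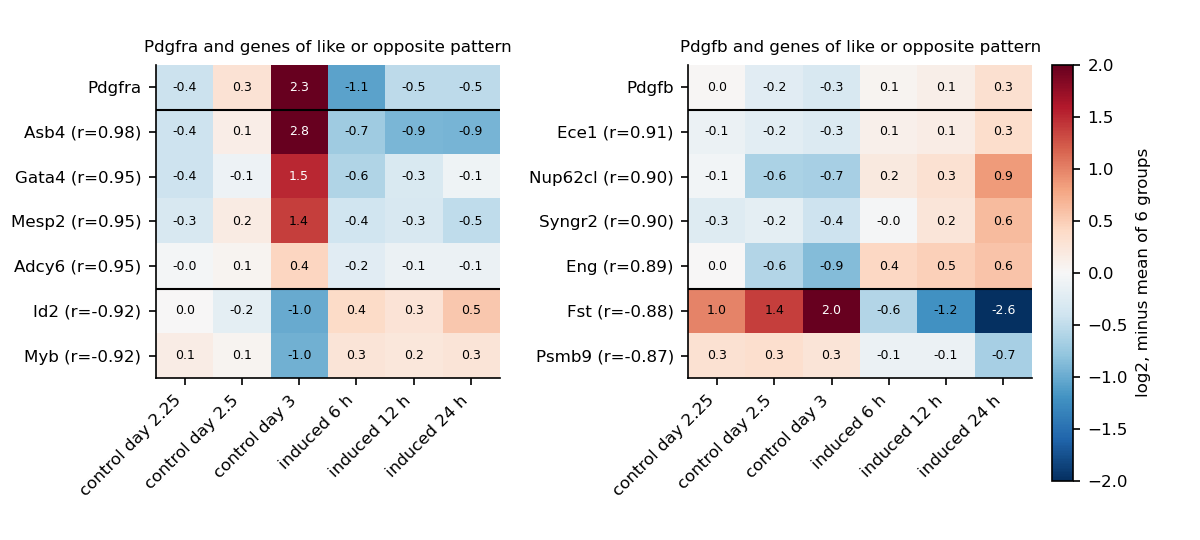
Group means of Pdgfra (left) and Pdgfb (right) with the 4 genes most like each and the 2 least like each by Pearson's r over 14 arrays, as log2 values minus the mean of the 6 groups (colour, saturated beyond 2 either way; the number is printed in each cell). Pdgfra and its 4 nearest genes are highest in the day 3 control, and Pdgfb and its 4 nearest genes are highest after 24 h of induction.

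Genes that act around the receptors were read from lists of known parts of the pathway. For the counts of calls in these lists, the share of all genes called was 1.39% at 12 h. At 24 h it was 5.46% (2.03% higher and 3.43% lower). Of 26 measured signal transducers that dock on or follow PDGF receptors, 1 was called at 12 h, Stat5b (0.97, limma adjusted p = 0.0118), which was not called without replicate 2 (0.274) or without replicate 3 (0.0925). The 12 h count was 3 with the replicate block and 2 without the array that stood apart. At 24 h 3 were higher and none lower, namely Stat5b (1.51, limma adjusted p = 9.31e-05), the adaptor Grb10 (0.78, 0.0038) and Stat5a (0.56, 0.0368). An unadjusted limma p under 0.05 was found at 24 h for 10, 8 of them higher and 2 lower, with no share of all genes beside it. The 24 h count was 7 in a fit blocked on replicate number, without the array that stood apart it was 6, with only the compared groups 2, and without replicate 2 or replicate 3 it was 1. The list's median difference was 0.00 at 24 h, as was that of all genes.

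Of 12 genes for processing and binding of the ligands, which include the proteases that release active PDGF-C and PDGF-D, Nrp1 was called at 12 h (1.20, limma adjusted p = 0.0262). Nrp1 encodes neuropilin-1, a co-receptor of VEGF that also binds PDGF, and its 12 h call was lost without replicate 2 (adjusted p = 0.371) or without replicate 3 (0.38). None of the 12 was called at 24 h, where 2 had an unadjusted limma p under 0.05, both lower. Plat, the tissue plasminogen activator that cuts PDGF-C, differed by 0.07 at 12 h and was not called. Between 12 h and 24 h of induction 1 of the 12 was called lower, beside 1.81% of all genes called. In controls from day 2.5 to day 3, 1 was called higher, beside 0.757%.

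Among 15 related receptors and ligands, Kdr was called at 12 h, and 2 genes were with the replicate block. At 24 h 3 were higher, the VEGF receptor genes Flt1 (1.17, limma adjusted p = 0.00768) and Flt4 (1.06, 0.0268) and the cytokine gene Flt3l (0.89, 0.0051), and none was lower. The 24 h count was 5 with the replicate block, 2 with only the compared groups or without replicate 3, and 0 without replicate 2. The receptors closest in kind to Pdgfra, which are Pdgfrb, Kit, Csf1r and Flt3, were not called at 12 h or 24 h. Csf1r and Flt3 had low group means, 3.74 to 4.11 and 3.87 to 4.07, where a change may not be detectable.

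Of 19 genes of the immediate response to serum and growth factors, Jun was higher at 12 h (0.84, limma adjusted p = 0.0125), a call lost without replicate 2 or replicate 3. At 24 h Jun (0.87, adjusted p = 0.00333) and Atf3 (0.80, 0.00424) were higher and Dusp6 (-2.43, 1.57e-06), Egr2 (-0.65, 0.0285) and Srf (-0.61, 0.0413) were lower. Dusp6 encodes a phosphatase of the ERK kinases. In place of these 2 higher and 3 lower genes there were 0 and 1 without replicate 2, 1 and 1 without replicate 3, and 2 and 1 with only the compared groups or without the array that stood apart. The list's median was -0.12 at 24 h against 0.00 for all genes.

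The cell types in which Pdgfra is known were then read from marker lists. Of 20 markers of PDGFRα-positive mesoderm, 8 rose in controls from day 2.5 to day 3 and none fell, among them Aplnr (3.04, limma adjusted p = 0.00023), Mesp1 (2.55, 0.000119), Hand1 (2.07, 0.00382) and Msgn1 (1.41, 0.00211), with 2 called without replicate 2 and 3 without replicate 3. At 24 h of induction 9 were lower and none higher, led by Mesp1 (-4.36, adjusted p = 5.41e-08), Snai1 (-2.62, 6.52e-07), Mesp2 (-1.88, 8.04e-06) and Aplnr (-1.48, 0.00832). The count lower was between 5 and 10 under the alternatives run for the lists, with the lowest count without replicate 3. With the replicate block 1 was higher and 10 lower, and 1 was also higher without replicate 3 or the array that stood apart. At 12 h Mesp1 was lower (-1.80, 0.000581) and the heart factor gene Tbx20 higher (1.23, 8e-04), the latter not called without replicate 2.

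The mean of the 20 mesoderm markers was 6.14 to 6.31 on the 3 control arrays of day 3, 5.36 to 5.50 on those of 24 h induction and 5.28 to 5.41 on the day 2.5 controls, with the day 3 controls highest as for Pdgfra. The part of these cells in the lower Pdgfra was not tested.

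Primitive endoderm, another source of Pdgfra, had calls in both directions. Of 18 markers at 24 h, 4 were higher, Sox7 (3.92, limma adjusted p = 5.41e-08), which is also an endothelial factor, Apoe (0.86, 0.00123), Col4a1 (0.65, 0.0081) and Col4a2 (0.53, 0.0338), and 2 were lower, Foxa2 (-3.53, 3.1e-07) and Gata4 (-1.60, 2.84e-05). Without replicate 2 or replicate 3 the count higher was 1, and with only the compared groups it was 2, while 2 were lower in each. At 12 h Sox7 and Apoe were higher and Foxa2 lower, and 1 was higher without replicate 2 or replicate 3. With the replicate block 4 were higher and 2 lower at 12 h, and without the array that stood apart 2 were higher and 2 lower. The secreted endoderm products Afp, Ttr and Apoa1 were not called at either time.

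Cell types that make or answer PDGF-B were read in the same way, beside 1.39% of all genes called at 12 h and 5.46% at 24 h. Of 16 endothelial markers 10 were higher at 12 h and 11 at 24 h, and none was lower, with Fli1 (4.27, limma adjusted p = 4.5e-09), Tek (4.10, 8.47e-07), Cdh5 (3.42, 4.72e-07) and Esam (2.75, 6.86e-07) changing most at 24 h. Without replicate 2 the 12 h count was 4 and without replicate 3 it was 5, and at 24 h the count was 10 to 12 in the alternatives. The mean of the 16 was 6.84 to 7.29 on the arrays of 24 h induction and 5.16 to 5.31 on the day 3 controls. Of 10 measured megakaryocyte and platelet genes none was called at 12 h, with 2 at an unadjusted limma p under 0.05, and 4 were higher at 24 h, Gfi1b (1.65, adjusted p = 1.19e-05), Nfe2 (1.53, 0.000399), Pf4 (1.07, 0.000107) and Vwf (0.54, 0.0254). Itga2b, Gp9, Gp5, Ppbp, Treml1 and Itgb3 were not called at 24 h, and the mean of Pf4 after 24 h of induction was a low 3.93. The 12 h count was 1 with the replicate block. The 24 h count was 3 without replicate 1, 2 or 3, without the array that stood apart, or with only the compared groups. Their part in the higher Pdgfb was not tested.

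Mural cell genes, the usual targets of PDGF-B, had more lower than higher calls at 24 h, as did all genes (3.43% lower and 2.03% higher). Of 14, Anpep was higher at 12 h (0.76, limma adjusted p = 0.0472), a call lost without any of the 3 replicates in turn, and with the replicate block 1 was higher and 1 lower. After 24 h Cnn1 (-1.88, adjusted p = 8.05e-06), Rgs5 (-1.35, 0.000106) and Tagln (-0.99, 0.034) were lower and none was higher, with 2 lower without replicate 2, replicate 3 or the array that stood apart. Rgs5 had risen by 1.52 in the controls (adjusted p = 0.000341), and Pdgfrb, the receptor that defines these cells, was not called in these comparisons. In place of that 1 control call among the 14 there were 2 with the replicate block, with only the compared groups or without the array that stood apart, and 0 without replicate 3. Of 17 fibroblast genes, read because feeder cells express PDGF receptors, none was called at 12 h, with 1 at an unadjusted limma p under 0.05 and 2 called higher with the replicate block (1 without replicate 1), and Thy1 alone at 24 h (0.98, adjusted p = 0.0342), a call lost without the array that stood apart. Thy1 alone makes 5.88% of the 17, beside 5.46% of all genes. The mean of the 17 was 5.43 to 5.70 on the 24 h arrays and 5.35 to 5.58 on the day 3 controls, which overlap.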

How the data were processed

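Expression was measured on 14 Affymetrix arrays, and the deposited values are log2 expression levels that the authors made with RMA (per the submitters' processing notes, which also name Affymetrix Expression Console). RMA corrects background, quantile-normalizes the arrays and summarises probes, and amplified RNA was hybridised per the labels' protocols. The SD over genes still ran from 1.91 (24 h induction, replicate 3) to 2.23 (6 h induction), so the deposited arrays do not share a distribution. Of 35556 probe sets, 21789 carry 1 gene symbol in the platform annotation, 1621 carry several and 12146 are not listed there. Per symbol the probe set with the highest mean over 14 arrays was kept, which gave 19938 genes. The number of arrays limits the precision.

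Differences were tested with limma 3.58.1 (lmFit, eBayes) in R 4.3.3 on the 12 arrays of the 4 groups with 3 replicates, which shared a residual spread (8 residual and 6.05 prior degrees of freedom), with Benjamini-Hochberg adjustment over all genes. The script was tested on simulated data. Intervals are at 95%. The PDGF genes and all lists were chosen with earlier results of these data known. Apart from the PDGF genes, up to 4 called genes with the largest change were named per list, with Kit, Kdr and the induced factors, and, for called PDGF genes, the 4 most and 2 least correlated genes. A few others were named after their values were seen. Whether replicates came from separate cultures beyond the stated experiments is not given per array.

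Same-numbered arrays deviated together within a day. Their correlations were 0.573, 0.344 and 0.262 between day 2.5 controls and 12 h induction. Between day 3 controls and 24 h induction they were 0.517, 0.157 and 0.261. The day 3 control of replicate 2 had 0.375 with the 24 h array of replicate 3, so pairing by number is less clear there. Between days the same-numbered correlations were 0.556, 0.221 and 0.0411 for controls. For induced cells they were 0.511, -0.00474 and 0.316. The reported fits had no block for replicate number. Alternatives covered blocking, line, normalization, filters, probe sets, weights and left-out arrays. Sequences and gene order came from RefSeq tables.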

Additional observations from a re-analysis of the deposited data

Results flagged for a closer look

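The difference of Pdgfra between induced and control cells was not the same at both times. It was -0.80 ± 0.211 log2 units at 12 h and -2.78 ± 0.211 at 24 h, and the change of effect was -1.98 ± 0.299 (limma interaction contrast over 12 arrays, adjusted p = 0.00654). All 3 replicates had a larger difference at 24 h. Between those times the control arrays rose from 5.76 to 7.73 on the mean and the induced arrays were at 4.96 at both. No other PDGF gene passed this test.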

How the results depend on the processing

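The calls of Pdgfra at 24 h and in controls over time held in all 25 alternatives. With arrays weighted by their spread, 1 PDGF gene was called at 12 h (Pdgfra, -0.95, limma adjusted p = 0.00561), against 0. Between 12 h and 24 h of induction 1 was called (Pdgfb, 0.45, limma adjusted p = 0.0304), against 0. The weights were limma's gene-by-gene weights, a choice made after its default method stopped early. Replicates 1, 2 and 3 had weights of 0.270, 3.32 and 0.318 at 24 h of induction, so those arrays counted mainly through replicate 2. The day 2.5 controls had 0.681, 0.555 and 2.94, mainly replicate 3. When the fit held the compared groups alone, 1 gene was called at 24 h against 2, Pdgfb being lost. Leaving out arrays gave 0 to 1 calls at 12 h, 1 to 2 at 24 h and 0 to 1 for the change of effect, and a Pdgfra difference at 12 h of -1.14 to -0.55.

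Signs turned for uncalled differences alone. At 24 h Pdgfa was 0.10 after renewed quantile normalization, 0.24 with array weights and -0.21 to 0.088 with arrays left out, and Pdgfd was -0.040 after quantile normalization. Between 12 h and 24 h of induction Pdgfra was 0.037 with arrays centred on their medians, 0.10 with weights and -0.15 to 0.15 with arrays left out, Pdgfa was -0.17 to 0.26 with arrays left out, and Pdgfd was -0.0067 after quantile normalization. With arrays left out Pdgfd ran from -0.16 to 0.034 at 12 h and from -0.10 to 0.12 in controls over time, and Pdgfb in controls from -0.18 to 0.015. The cause of these turns was not tested.

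The replicate block changed no PDGF call in the 5 planned comparisons; with it, Pdgfra had an adjusted p of 0.0636 at 12 h, 3.79e-07 at 24 h and 0.00286 for the change of effect, and Pdgfb 0.0132 at 24 h. Counts over all genes moved more. At 12 h they were 277, 441 with the block, 798 with array weights and 80 to 366 with arrays left out; at 24 h 1088, 669 with only the compared groups, 2634 with weights and 392 to 1889 with arrays left out. For the change of effect they were 85, 163 with the block, 130 after quantile normalization, 318 with weights and 2 to 109; for controls over time 151, 344 with the block, 471 with weights and 17 to 238; for 12 h to 24 h of induction 360, 742 with the block, 100 with only the compared groups, 1495 with weights and 21 to 727. The fit of only the compared groups equals the reported one for the change of effect and was not run there. Pdgfd was left out by the filter on genes under the 40th percentile of mean signal. With 3 arrays a group, differences such as those of Pdgfa, Pdgfc and Pdgfrb at 12 h or 24 h cannot be told from 0 after adjustment over all genes, and probe signals give no absolute level.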
